A study of Capra hircus with 2 samples.

Results

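The miR-30 family was examined in goat (Capra hircus) mammary gland through its 5 genes miR-30a, miR-30b, miR-30c, miR-30d and miR-30e and the 11 mature sequences cut from their 5p and 3p arms, among 124 mature miRNAs recognised in all. A sequenced small RNA, called a tag here, was given to a member when it was at least 18 nt long, started where the mature sequence does or up to 2 bases into it, matched it without a mismatch over the shorter of both, and ran at most 3 nt past its end. Small RNA was sequenced in 2 libraries of total RNA from mammary tissue of dairy goats. The early lactation library was taken on day 10 after parturition. The early involution library was taken on day 218 after parturition, 5 days after weaning had been forced in late lactation. Each library pooled equal amounts of RNA of 5 goats, so the spread between animals was not measured and no difference between stages could be tested. No genetic alteration or drug is named in the labels, and they give no breed, age or parity. The effects of weaning and of the time since parturition cannot be told apart, and in whole tissue neither can fewer cells of a type and less RNA per cell.

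MicroRNAs are short RNAs that guide Argonaute proteins to messenger RNAs, mainly through pairing of the seed, bases 2 to 8 counted from the 5′ end. A hairpin precursor yields a duplex of a 5p and a 3p strand, of which 1 is usually kept and the other mostly degraded. The miR-30 genes are conserved in vertebrates, and their 5p strands share a seed, so that their predicted targets overlap widely. Members of the family are abundant in mammary epithelium and milk, and excess miR-30b in the mammary gland of transgenic mice is known to impair lactation and to delay involution.

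The mature sequences are shown first because the family's members are told apart by a few bases, on which every value rests. They were read from the deposited tags, 5′ to 3′, written with T for U, and the capitals mark the seed. The 5p strands were the following.
miR-30a-5p: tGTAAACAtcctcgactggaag
miR-30d-5p: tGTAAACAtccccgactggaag
miR-30e-5p: tGTAAACAtccttgactggaag
miR-30b-5p: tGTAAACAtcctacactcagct
miR-30c-5p: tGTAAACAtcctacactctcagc

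Positions are counted from 1 at the 5′ end. From miR-30a-5p, miR-30d-5p differed by T12C alone and miR-30e-5p by C13T alone. The members miR-30b-5p and miR-30c-5p formed a second group. They had the same first 18 bases, while miR-30b-5p differed from miR-30a-5p at 7 of 22 bases, all after base 12. All 5 sequences had the same seed. The 3p strands did not, and they are shown because they divide the family in the same way.
miR-30a-3p: cTTTCAGTcggatgtttgcagc
miR-30d-3p: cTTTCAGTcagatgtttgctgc
miR-30e-3p: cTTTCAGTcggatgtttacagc
miR-30b-3p: cTGGGAGGtggatgtttacttc
miR-30c-1-3p: cTGGGAGAgggttgtttactcc
miR-30c-2-3p: cTGGGAGAaggctgtttactct

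The 3p strands of miR-30a, miR-30d and miR-30e shared 1 seed. That of miR-30b had another, and miR-30c-1-3p and miR-30c-2-3p shared a further one. The miR-30c 5p strand is the product of 2 genes in some mammals, where only the 3p strands tell these genes apart. Whether goats have both genes was not tested. RefSeq's list of goat genes (assembly ARS1.2) placed MIR30E and MIR30C within 10 kb of each other, and likewise MIR30B and MIR30D, so neighbouring genes belong to different groups by sequence.

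The libraries held 18031615 clean tags in early lactation and 7385833 in early involution, a depth ratio of 2.44. In the authors' filtering logs, 5′ adaptor contaminants were 0.0505% of the high-quality reads in early lactation and 14.03% in early involution, and reads with no insert were 0.945% and 7.73%. The tags of the 124 recognised miRNAs made up 76.5% and 71.4% of clean tags. Levels are given in tags per 1000000 clean tags (TPM). Intervals are exact 95% intervals that cover counting error only, since each stage had 1 pooled library. The reads carried no molecular identifiers, so copies made in amplification were counted as separate reads. The intervals can therefore be too narrow. A count of 0 allows up to 3 tags, which is 0.166 TPM in early lactation and 0.406 TPM in early involution.

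The family was among the most abundant small RNAs in both stages and was lower in the early involution library. Its 5p strands summed to 45849 TPM in early lactation and 28829 TPM in early involution, or 4.58% and 2.88% of all clean tags. The involution sum was 1.59-fold lower (interval 1.58 to 1.60), but over tags identical to the references alone it was higher, at a ratio of 1.22. The 3p strands summed to 3575 and 2866 TPM, 1.25-fold lower (1.23 to 1.27). This sum joined opposite differences within the family. The summed 5p strands of miR-30a, miR-30d and miR-30e went from 45684 to 27216 TPM, 1.68-fold lower, while those of miR-30b and miR-30c went from 164.8 to 1614 TPM, a ratio of 9.79 (9.41 to 10.2).

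The strand miR-30a-5p dominated the family. It had 635592 tags (35249 TPM) in early lactation and 133870 tags (18125 TPM) in early involution, ranking 7 and 8 among the 124 miRNAs. Its involution level was 1.94-fold lower (1.93 to 1.96), a log2 ratio of -0.96, just inside the 2-fold limit used for a call here. The level of miR-30d-5p was 7635 TPM in early lactation and 6784 TPM in early involution, 1.13-fold lower (1.11 to 1.14). That of miR-30e-5p was 2800 TPM and 2306 TPM, 1.21-fold lower (1.19 to 1.24). So these 3 abundant strands were all lower in the involution library, and miR-30a-5p was the one with the largest difference. The commonest tag of each strand counted alone gave ratios of 0.413 for miR-30a-5p, 0.558 for miR-30e-5p and 0.686 for miR-30d-5p, in the same order. This count was chosen after seeing the data and is a part of the same tags, so it is no separate support. Counted over tags identical to the sequences above, which for these 3 strands are a minority of tags, the order was not kept. The ratios were then 0.835 for miR-30a-5p, 1.26 for miR-30d-5p and 1.63 for miR-30e-5p. So the last pair lay on the other side of 1, and miR-30e-5p lay furthest from 1.

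The strands miR-30b-5p and miR-30c-5p moved the other way. In early lactation miR-30b-5p was counted 1466 times (81.3 TPM) and in early involution 8157 times (1104 TPM), although that library was the shallower one. The ratio was 13.6 (12.8 to 14.4), or 3.76 on the log2 scale, and its rank rose from 78 to 38. The strand miR-30c-5p had 1505 tags (83.5 TPM) and 3761 tags (509 TPM), a ratio of 6.10 (5.75 to 6.48), or 2.61 on the log2 scale. Its rank went from 76 to 60. Both kept their call, at a 2-fold limit, in all 9 alternative ways of counting and scaling that gave them a value. Their ratios ran from 9.17 to 14.98 for miR-30b-5p and from 2.83 to 6.54 for miR-30c-5p. These ways were not all distinct, since the commonest tag of both strands is the tag identical to the reference. Each was taken singly, and ways of counting and of scaling were not combined. The lowest value of miR-30c-5p came from tags identical to its reference, a class whose share differed between the libraries.

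**Figure D1:**
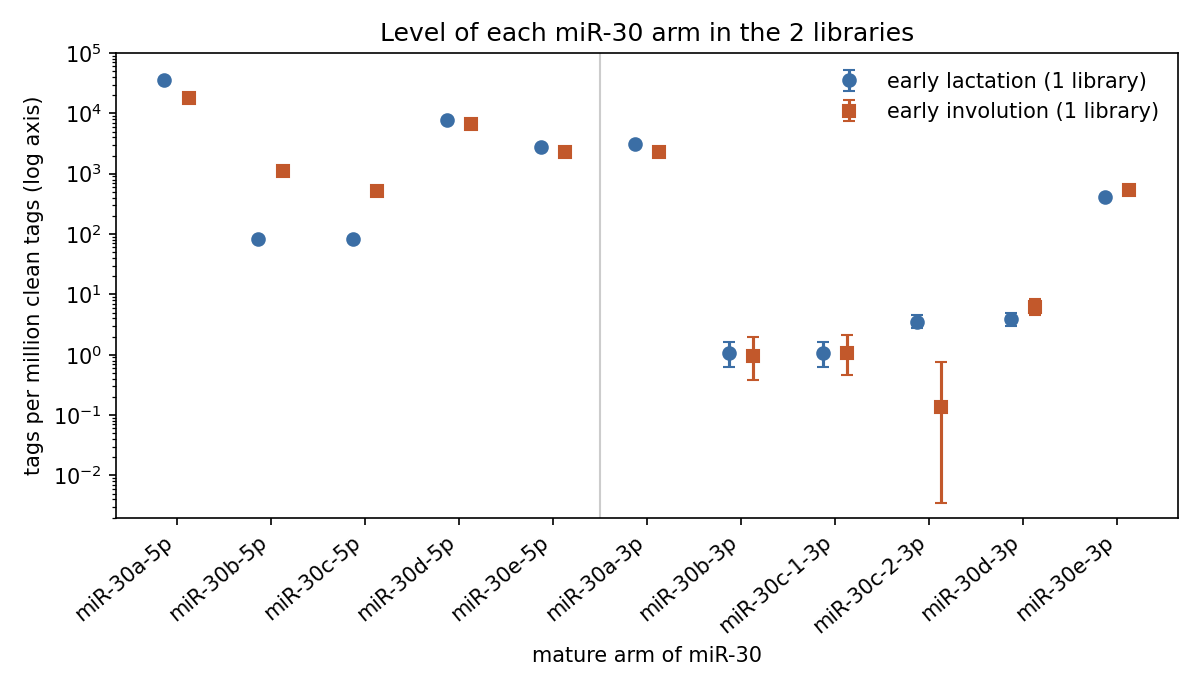
Levels of the miR-30 mature strands in TPM (log axis) in early lactation and early involution, 1 pooled library each, with exact 95% intervals for counting error alone. The strands miR-30a-5p, miR-30d-5p and miR-30e-5p lie highest in both libraries, and miR-30b-5p goes from 81.3 to 1104 TPM.

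A miRNA was called higher or lower when its level differed at least 2-fold between the libraries (an involution to lactation ratio of 2 or more, or of 0.5 or less), its counting interval excluded 1, and its level was 10 TPM or more in either library. Of the 5 miR-30 5p strands, 2 were called higher, 0 lower and 3 neither. Over the 113 miRNAs that reached 10 TPM, 49 were called higher (43.4%) and 8 lower (7.08%), so calls of higher were frequent among all miRNAs and a count of 2 in 5 is near that background. The median log2 ratio was -0.17 over the 5 strands and 0.57 over the 113 miRNAs, which ranged from -1.67 to 5.83. Most miRNAs were thus higher in the involution library on this scale, and scaling by median-of-ratios factors lowered every log2 ratio by 0.57 and scaling by TMM factors by 0.28, whereas scaling to miRNA tags raised them by 0.10. With the first of these 40 miRNAs were called higher and 25 lower, with the second 44 and 14. Higher calls then made up 61.5% and 75.9% of all calls, against 86.0% as reported. Each scaling shifts all miRNAs alike, so the order of the strands among them is the same. The shift took miR-30a-5p past the limit for lower, at 0.347 and 0.422, and left miR-30d-5p and miR-30e-5p uncalled.

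**Figure D2:**
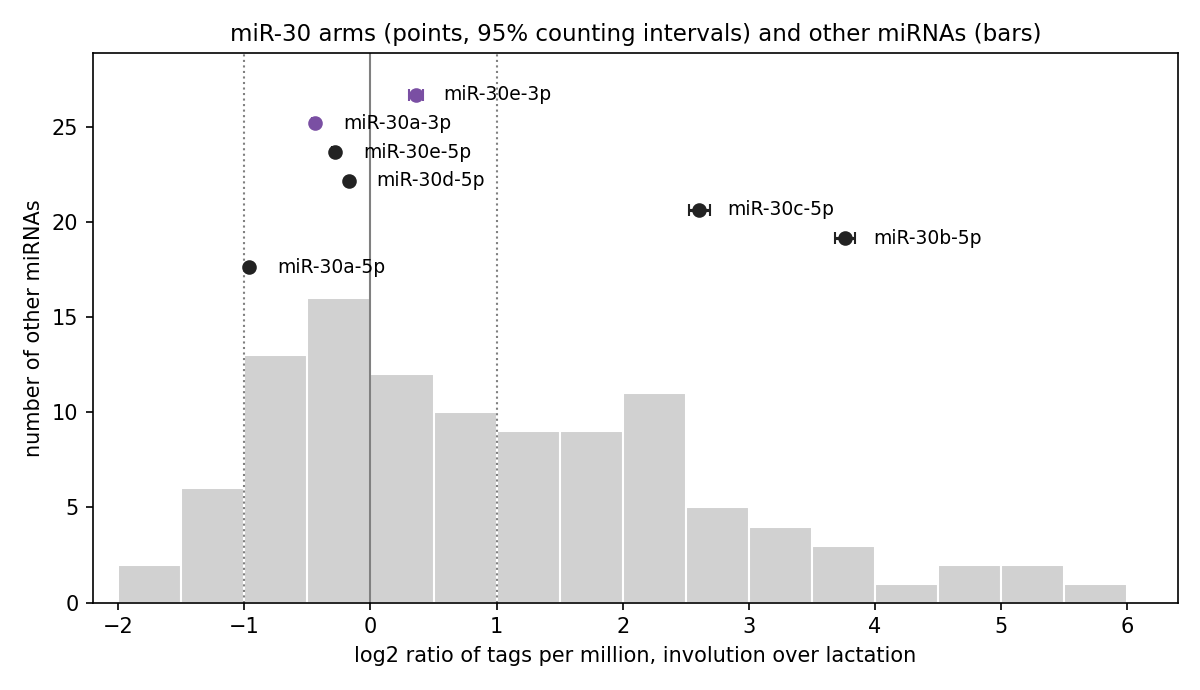
Log2 ratio of early involution to early lactation for the 7 miR-30 strands that reached 10 TPM (points, 5p black and 3p purple, with exact 95% counting intervals, placed at heights that carry no value) over the number of other miRNAs at each ratio (bars, miR-30f included), with dotted lines at 2-fold. The strands miR-30b-5p at 3.76 and miR-30c-5p at 2.61 lie to the right of 1, and the other 5 lie between the dotted lines.

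Shares within a library need no scaling between libraries. Of the miR-30 5p tags, miR-30a-5p made up 76.9% in early lactation and 62.9% in early involution. The share of miR-30d-5p was 16.7% and 23.5%, and that of miR-30e-5p was 6.11% and 8.0%. The loss in the share of miR-30a-5p was therefore spread over all the other members. The strand miR-30b-5p went from 0.177% to 3.83% and miR-30c-5p from 0.182% to 1.77%, so that together they were 0.359% of the family's 5p tags in early lactation and 5.60% in early involution. The seed that all 5 strands carry was carried mainly by miR-30a-5p in both libraries.

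Pairs of members showed the same shift without any scaling. There were 434 tags of miR-30a-5p for each tag of miR-30b-5p in early lactation (412 to 457) and 16.4 in early involution (16.0 to 16.8). Between the neighbouring genes, miR-30d-5p outnumbered miR-30b-5p 93.9 to 1 and then 6.14 to 1. Likewise miR-30e-5p outnumbered miR-30c-5p 33.6 to 1 and then 4.53 to 1. In each pair of neighbours the strand called higher was the scarcer one. In TPM, a scaled measure, the levels of their neighbours differed by less than 1.5-fold between the libraries. With median-of-ratios factors miR-30d-5p was 1.67-fold and miR-30e-5p 1.80-fold lower in early involution. Over tags identical to its reference miR-30e-5p was higher instead, at a ratio of 1.63. Within the scarce group, miR-30b-5p and miR-30c-5p were about even in early lactation, at 0.974 (0.906 to 1.05), an interval that includes 1. In early involution miR-30b-5p was 2.17-fold the more frequent (2.09 to 2.25).

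The 3p strands were scarcer, and those of miR-30a and miR-30e made up nearly all of them. The strand miR-30a-3p had 56879 and 17208 tags, or 3154 and 2330 TPM, and was 1.35-fold lower in early involution (1.33 to 1.38). The strand miR-30e-3p had 7406 and 3896 tags, or 411 and 528 TPM, with a ratio of 1.28 (1.24 to 1.34). Their shares were 88.2% and 11.5% of the family's 3p tags in early lactation and 81.3% and 18.4% in early involution. Of the 6 miR-30 3p strands only these 2 reached 10 TPM, and neither was called. With median-of-ratios factors miR-30a-3p passed the limit at 0.498, and the ratio of miR-30e-3p was 0.867, on the other side of 1.

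The remaining 3p strands were close to the limit of counting. The strand miR-30d-3p had 70 tags (3.88 TPM) in early lactation and 46 tags (6.23 TPM) in early involution. The strand miR-30b-3p had 19 and 7 tags, a ratio of 0.899 with an interval from 0.320 to 2.23. This interval leaves out the 13.6 of its 5p partner, so the ratios of the 2 strands of miR-30b differed by more than this interval allows. Similarly miR-30c-1-3p had 19 and 8 tags, a ratio of 1.03 (0.389 to 2.46), against 6.10 for miR-30c-5p. Over tags with the full 5′ end its counts were 19 and 3, a ratio of 0.385 (0.0731 to 1.31). The strand miR-30c-2-3p was counted 64 times in early lactation and 1 time in early involution.

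Arm ratios, the 5p tags for each 3p tag of a precursor in 1 library, followed the 2 groups. For miR-30a the ratio went from 11.2 (11.1 to 11.3) in early lactation to 7.78 (7.66 to 7.90) in early involution, so the 3p share of its tags went from 8.21% to 11.4%. For miR-30e it went from 6.82 (6.65 to 6.99) to 4.37 (4.22 to 4.53), with 3p shares of 12.8% and 18.6%. The most one-sided precursor of this group was miR-30d, at 1967 (1557 to 2523) and 1089 (816 to 1488). All 3 ratios were thus lower in the involution library. In tags identical to the references alone, the ratios of miR-30a and miR-30e were higher in involution instead, at 1.26 and 1.47 for miR-30a and 0.792 and 1.02 for miR-30e, and those of miR-30d were close, at 545 and 523. In the commonest tag of each arm they were lower again, at 12.3 and 7.07 for miR-30a, 6.48 and 2.86 for miR-30e and 3805 and 1995 for miR-30d. The arm ratios of the scarce group went up. For miR-30b the ratio was 77.2 (49.2 to 129) in early lactation and 1165 (565 to 2899) in early involution. For miR-30c, with both its 3p strands summed, it was 18.1 (14.5 to 22.9) and 418 (220 to 915). Of the 83 lactation 3p tags in this sum, 64 were miR-30c-2-3p, which differs by 1 base from miR-30f-3p, described further on. The ratios of miR-30b and miR-30c stayed higher in early involution under the other counts. Over identical tags miR-30b was at 130.5 and 3202.5. Over tags with the full 5′ end miR-30c was at 20.5 and 936. With miR-30c-1-3p alone the ratio of miR-30c was 79.2 (50.5 to 132) and 470 (238 to 1090). The higher calls of miR-30b and miR-30c were calls of the 5p strand. Their 3p strands had at most 64 tags in early lactation and at most 8 in early involution, too few for a call.

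**Figure D3:**
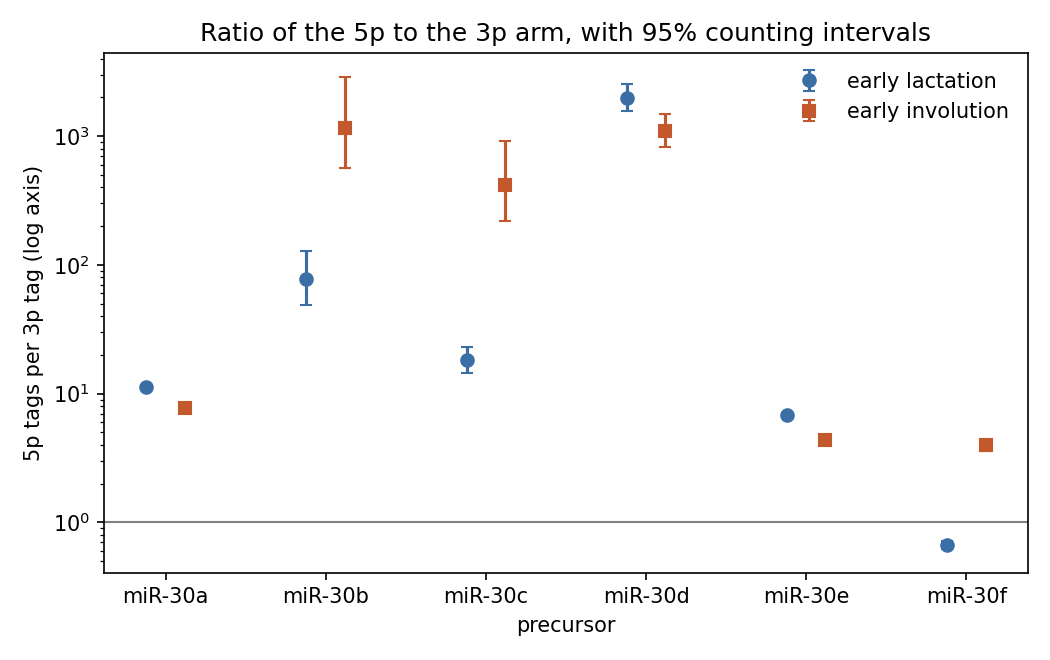
Ratio of 5p to 3p tags of each miR-30 precursor (log axis) in early lactation and early involution, 1 pooled library each, with exact 95% intervals for counting error, for the 5 genes and for miR-30f, which is described further on. For miR-30c both 3p strands are summed, and 64 of its 83 lactation 3p tags are miR-30c-2-3p, whose gene of origin was not tested. With miR-30c-1-3p alone its ratio is 79.2 in early lactation and 470 in early involution. The ratios of miR-30a, miR-30d and miR-30e are lower in early involution, and those of miR-30b, miR-30c and miR-30f are higher.

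The 3′ ends divided the family as well. For miR-30a-5p, miR-30d-5p and miR-30e-5p the commonest tag in both libraries was 1 base longer than the sequence given above, ending in an added C. It is shown because it, and not the shorter form, carried most of the family's tags.
miR-30a-5p, commonest tag: tGTAAACAtcctcgactggaagc
miR-30d-5p, commonest tag: tGTAAACAtccccgactggaagc
miR-30e-5p, commonest tag: tGTAAACAtccttgactggaagc

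This 23-nt tag was 72.8% of the tags of miR-30a-5p in early lactation and 58.5% in early involution. It was 77.4% and 59.7% for miR-30d-5p, and 68.8% and 46.6% for miR-30e-5p. Tags of any length past the reference end dropped by 7.99 points in miR-30a-5p, and dropped by 12.4 points in both miR-30d-5p and miR-30e-5p. In the involution library all 3 strands thus had a larger share of tags that ended at or before the reference end. Among the 68 miRNAs outside the family (miR-30f left out as well) that had 1000 tags or more in each library, the share of tags past the reference end had a median change of 1.38 points upward. It had a larger drop than in miR-30a-5p, miR-30d-5p and miR-30e-5p in 6, 3 and 3 of them respectively. Longer additions went the other way. Tags ending in CT past the reference end went from 5.81% to 11.3% of miR-30a-5p, from 3.24% to 7.48% of miR-30d-5p and from 7.70% to 15.8% of miR-30e-5p. A 19-nt tag, 3 bases short of the reference, made up 6.58% and 4.4% of miR-30a-5p and 5.24% and 4.42% of miR-30e-5p, but 0.831% and 1.18% of miR-30d-5p. Whether the bases past the reference end are encoded in the goat hairpins or were added after cleavage was not tested.

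The scarce strands had other ends, and they differed from each other. Of the tags of miR-30b-5p, 71.3% ended at the reference end in early lactation (68.9 to 73.6) and 79.0% in early involution (78.1 to 79.9). Shorter tags went from 26.3% to 15.6%. For miR-30c-5p the same measure went from 68.2% (65.8 to 70.5) to 31.5% (30.0 to 33.0). Shorter tags went from 12.9% to 35.9% and longer ones from 18.9% to 32.6%, mostly by an added T, which was on 17.3% and 28.6% of its tags. The share at the reference end dropped by 36.7 points in miR-30c-5p, and it dropped by 38.5 points in miR-30f-5p, a near copy described further on. None of the 68 miRNAs outside the family lost as many points, and their median change was 0.752 points upward. The 3p strands had like ends in both libraries: 83.7% and 80.9% of miR-30a-3p tags and 85.3% and 84.0% of miR-30e-3p tags ended at the reference end. The shares of adaptor contaminants and of reads with no insert also differed between these 2 libraries, as given above, and their part in the end shares was not tested.

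**Figure D4:**
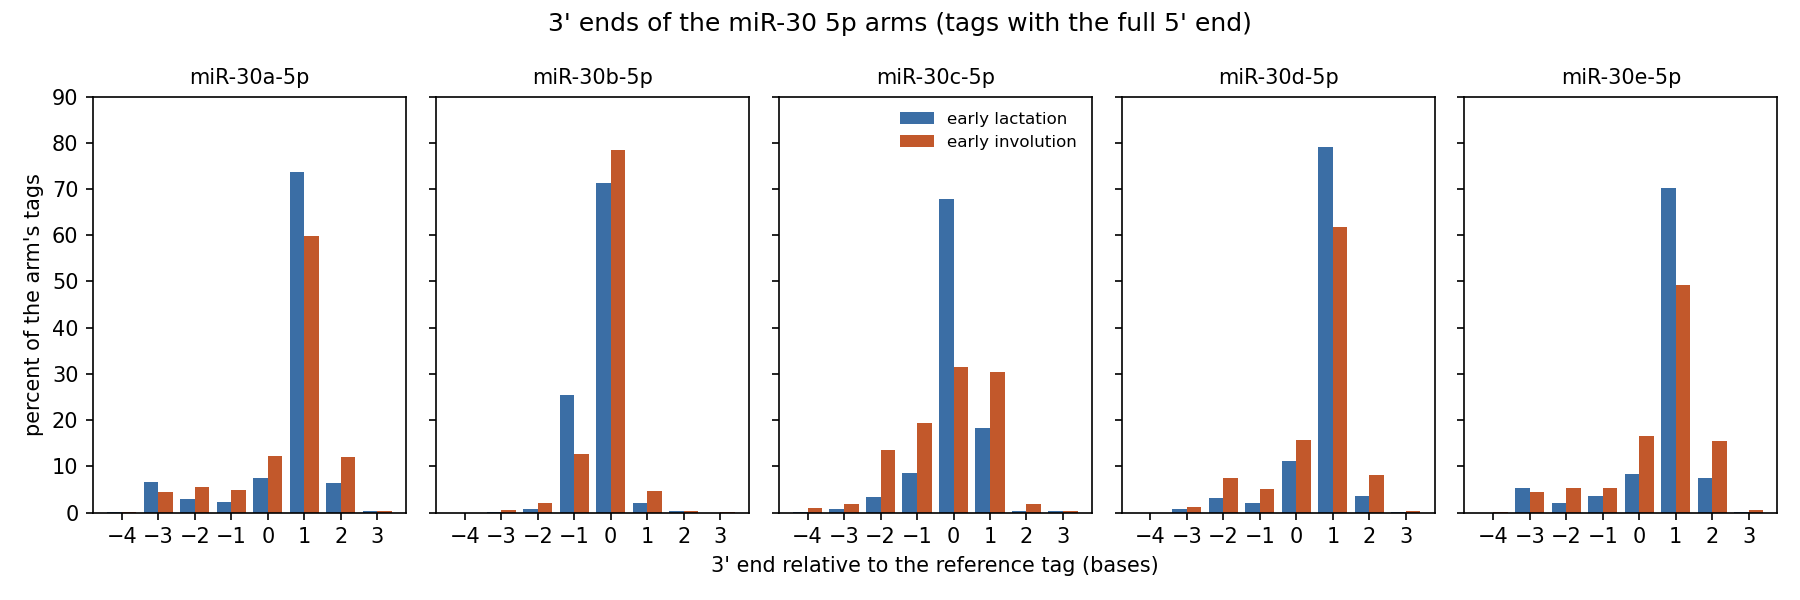
Share of each miR-30 5p strand's tags, in percent, by the distance of the 3′ end from the reference end in bases, for tags with the full 5′ end in early lactation and early involution. The tag 1 base longer leads for miR-30a-5p, miR-30d-5p and miR-30e-5p in both libraries, the reference end leads for miR-30b-5p, and for miR-30c-5p it goes from 67.8% to 31.5%.

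The first base sets the seed, and here the arms differed. Tags that lacked 1 or 2 first bases were 0.339% of miR-30a-5p in early lactation and 0.400% in early involution. They were 0.168% and 0.313% of miR-30d-5p, and 2.82% and 3.18% of miR-30e-5p. In miR-30a-3p they were 21.6% and 21.5%, and in miR-30e-3p 15.2% and 14.6%. The median of the 68 miRNAs outside the family was 0.296% and 0.599%, and 1 of them had a higher share than miR-30a-3p in early lactation and 2 in early involution. The shares of both 3p strands thus differed by less than 1 point between the libraries. The main shifted tag of miR-30a-3p is shown because the loss of its first base moves the seed by 1 base.
miR-30a-3p, from its second base: tTTCAGTCggatgtttgcagc

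It was counted 9750 times in early lactation and 2800 times in early involution, or 17.1% and 16.3% of miR-30a-3p tags. The 5p seed was therefore kept in nearly all tags of the family, while about 1 in 5 miR-30a-3p tags carried a shifted seed. Starts 1 base before the reference were not seen for miR-30b-5p or miR-30c-5p in early lactation, and made up 1.88% and 1.44% of their tags in early involution. Such starts were also more frequent in early involution for the other 5p strands. They went from 0.066% to 0.198% in miR-30a-5p, from 0.030% to 0.326% in miR-30d-5p and from 0.030% to 0.310% in miR-30e-5p. In miR-30f-5p they went from 0.080% to 1.29%. The part of the 5′ adaptor contaminants in these starts was not tested.

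Misread bases were gauged by bases of no member at the positions that tell miR-30a, miR-30d and miR-30e apart. At the position of miR-30d-5p, 128993 full-length tags in early lactation carried the base of miR-30d-5p, against at most 103 that carried a base of no member there, or 0.0798% of it. In early involution the numbers were 42972 and 8. For miR-30e-5p they were 43546 and 381 (0.875%) in early lactation and 13940 and 41 (0.294%) in early involution. Subtracting such tags left the shares of both members at 16.7% and 6.07% in early lactation and at 23.5% and 7.98% in early involution. The members differ by exchanges of T and C, while the bases of no member counted here were A and G. Misreads between T and C could therefore not be gauged this way. Tags with C at base 12 and T at base 13, which fit no member, were counted 121 times in early lactation and 43 times in early involution. Tags that fitted 2 members were rare: 1 tag of 18 nt, the bases that miR-30b-5p and miR-30c-5p share, was counted 0 times in early lactation and 14 times (1.9 TPM) in early involution and was set aside. Of all tags that began with the first 8 bases of the 5p strands, 98.2% in early lactation and 96.5% in early involution went to the 5 members.

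A further sequence with the same 5p seed, known in ruminants as miR-30f, was counted beside the members because it differs from miR-30c-5p by T9C alone, and its 3p strand differs from miR-30c-2-3p by A8G alone. Its name was given from general knowledge. The gene table lists a MIR30F on the chromosome of MIR30A, with 0 miRNA genes between them, and pairs no sequence with it.
miR-30f-5p: tGTAAACAccctacactctcagc
miR-30f-3p: cTGGGAGGaggctgtttactct

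The level of miR-30f-5p was 69.6 TPM in early lactation and 279 TPM in early involution, a ratio of 4.01 (3.73 to 4.30). It was called higher, but over tags identical to the sequence above the ratio was 1.82, which is under the limit. Its 3p strand was at 104 and 70.3 TPM, a ratio of 0.676 (0.612 to 0.745). So its arm ratio went from 0.669 (0.623 to 0.719) to 3.97 (3.60 to 4.38), and the more frequent strand was 3p in early lactation and 5p in early involution. Its ends resembled those of miR-30c-5p, with 70.8% and 32.4% of tags at the reference end. This strand touches 1 member directly. Full-length tags with the base of miR-30c-2-3p at position 8 were 41 against 1215 of miR-30f-3p in early lactation, 3.37%, whereas each of 56 other single substitutions at bases 1 to 19 gave at most 5 tags. In early involution they were 1 against 294, 0.340%. Whether these tags came from a miR-30c gene or from a variant of miR-30f was not tested.

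Set beside other families with a shared seed, miR-30 was the most spread. With miR-30f-5p its 6 strands ranged over 4.72 on the log2 scale, from miR-30a-5p to miR-30b-5p. Among the 9 seed families with at least 3 strands that reached 10 TPM, the next were miR-29 with 3.55, the miR-15 and miR-16 group with 3.38 and miR-99 and miR-100 with 2.75. The 9 strands of the let-7 family ranged over 2.11, and the miR-200b, miR-200c and miR-429 group over 0.77. These ranges grow with the number of strands, and no test of their difference was made. The recognised miRNAs are not a full list, so other families can lack strands here, whereas miR-30 was counted with miR-30f-5p.

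The miRNAs outside the family whose log2 ratio lay nearest to each 5p strand, among the 86 that reached 100 TPM in a library, were miR-99b for miR-30a-5p (-0.99), miR-19a for miR-30b-5p (3.79), miR-15a for miR-30c-5p (2.58), miR-103 for miR-30d-5p (-0.11) and let-7e for miR-30e-5p (-0.26). With 2 libraries this likeness is a single difference per miRNA. Across the 113 miRNAs the log2 ratio and the GC content of the mature sequence had a Pearson correlation of -0.19 and a Spearman correlation of -0.15. The GC content of miR-30b-5p was 40.9%, the same as that of miR-30e-5p, and the others lay between 43.5% for miR-30c-5p and 50% for miR-30d-5p.

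Markers of the cell types that the tissue could hold are given beside the 43.4% of all 113 miRNAs that were called higher and the 7.08% called lower. Lists of 2 to 8 miRNAs with 1 to 3 higher calls lie near that background or are too short to be set against it. The 8 mammary epithelial miRNAs summed to 76731 TPM in early lactation and 50637 TPM in early involution, with miR-375 (208 and 5039 TPM), miR-205 and miR-141 called higher and miR-148a (56042 and 24683 TPM) lower, so the epithelial list itself did not move one way. Of the 6 leukocyte miRNAs 5 were called higher, among them miR-223 at 18.6 and 160 TPM, and miR-155 was called lower, and their sum was 1218 and 1506 TPM. The 3 erythroid miRNAs summed to 910 and 3051 TPM, 2 called higher. The 5 stromal and smooth muscle miRNAs summed to 267468 and 290866 TPM, 2 called higher, and the 2 endothelial miRNAs to 7584 and 7085 TPM, 1 called higher. The 3 skeletal muscle miRNAs summed to 1467 and 1102 TPM, 1 called higher, and the liver miRNA miR-122 was at 1.11 and 5.55 TPM. The 10 miRNAs known from milk and lactation include miR-148a and miR-200c of the epithelial list. They summed to 371008 and 301765 TPM, with a median log2 ratio of -0.09. In this list 1 was called in each direction, and the lower call was again miR-148a. None of the markers was at 0 in either library. The part of these differences in the levels of the miR-30 strands was not tested.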

How the data were processed

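Per the labels' protocols, RNA of 18 to 30 nt was selected, ligated to adaptors, amplified and sequenced. The deposited tables hold raw counts: each distinct clean tag with its length and read count. Tags ran from 18 to 44 nt. The trimming tools are not given in the sources used, and each filtering log was tied to its library by its name and its clean total. Shares in percent were taken from the read numbers of the authors' deposited logs.

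Tags were assigned with Python 3.11.15, and exact binomial intervals came from scipy 1.17.1. No mature or hairpin miRNA sequences were used here. The 124 miRNAs were recognised by pairs of short sequence words of at most 8 bases, written from general knowledge (125 were looked for), and the commonest tag of the usual length holding those words became the reference. This panel replaced the planned RefSeq background. Tags that fitted more than 1 miRNA, 0.0339% and 0.0643% of clean tags, were set aside. The assignment was tested on tags simulated from the same references, so this test could not check whether the references were right. Gene neighbours came from RefSeq ARS1.2, where 6 of 6 MIR30 genes were found.

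The miRNAs named are the 11 strands of miR-30a to miR-30e, the nearest log2 ratio outside the family for each 5p strand, the marker lists and the seed families. The naming of miR-30f was added after its values were seen. The members and lists were chosen with earlier results of these data known. End variants were measured in strands with at least 100 tags in both libraries. With 1 library per stage no test was run. The alternatives were 3 other scalings (TMM factors from edgeR 4.0.16), other tag definitions, level filters and fold limits.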

Additional observations from a re-analysis of the deposited data

How the results depend on the processing

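With 1 pooled library per stage, every value describes 2 libraries, and depth limits the 3p strands under 100 tags. In the order miR-30a-5p, miR-30b-5p, miR-30c-5p, miR-30d-5p, miR-30e-5p, summed 5p and summed 3p, the ratios of early involution to early lactation were as follows. Scaled to miRNA tags they were 0.551, 14.6, 6.54, 0.953, 0.883, 0.674 and 0.860. With median-of-ratios factors they were 0.347, 9.17, 4.12, 0.5997, 0.556, 0.424 and 0.541, and miR-30a-5p and the summed 5p strands passed the limit for lower. With TMM factors they were 0.422, 11.2, 5.01, 0.730, 0.677, 0.517 and 0.659, and miR-30a-5p passed it. Over tags identical to the references they were 0.835, 14.98, 2.83, 1.26, 1.63, 1.22 and 0.785, so miR-30d-5p, miR-30e-5p and the summed 5p strands turned to the other side of 1. By construction this count leaves out the commonest tag of miR-30a-5p, miR-30d-5p and miR-30e-5p. Over the commonest tag of each strand, chosen after seeing the data, they were 0.413, 14.98, 2.83, 0.686, 0.558, 0.499 and 0.785. Tags of 20 nt or more gave 0.526 for miR-30a-5p and 0.643 for the summed 5p strands, and tags sharing the first 18 bases gave 0.834 for the summed 3p strands. The count of miRNAs called lower was 25 with median-of-ratios factors, 14 with TMM factors, 18 at a 1.5-fold limit and 1 at a 3-fold limit. The count called higher stayed within 1.5 times the 49 reported, from 38 to 55. The cause of the shifts between scalings was not tested. No paired analysis was possible because each stage had 1 library. Alternatives that match bases to the hairpin were not run, and counting by the first 18 bases could not separate miR-30b-5p from miR-30c-5p.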
